A study of Mus musculus with 6 samples.

Results

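The 10 genes described here encode receptors that place lymphocytes within the spleen: the chemokine receptors Cxcr5, Ccr6, Ccr7, Cxcr4 and Cxcr3, the oxysterol receptor Gpr183, the sphingosine 1-phosphate receptors S1pr1, S1pr3 and S1pr4, and the cannabinoid receptor Cnr2. They were taken by symbol from the 22180 genes of the array table, and each of the 10 had 1 probe set annotated to it alone. The tested mice overexpressed AIMP2-DX2, a splice form of the tRNA synthetase scaffold AIMP2 that lacks an exon. Per the labels they had the genotype CAG-rtTA; TRE DX2/+, in which the widely active CAG promoter drives rtTA, an activator that turns on the TRE transgene in the presence of doxycycline. Control littermates had the genotype 0; TRE DX2 /+, with the transgene but without the activator. Both groups were fed pellets with doxycycline (6.25 mg/kg) from 8 weeks of age and were 1 year old, and 3 spleens of each group were hybridised to 1 array each, labelled as biological replicates. An effect of rtTA itself cannot be told apart from one of DX2, because the controls lacked rtTA.

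These receptors are G protein-coupled proteins that let lymphocytes follow gradients laid down by stromal cells. In the white pulp, CXCL13 draws B cells into follicles through CXCR5, CCL19 and CCL21 draw T cells into the T zone through CCR7, and oxysterols move B cells toward the outer follicle through GPR183 (EBI2). Sphingosine 1-phosphate, which is abundant in blood, keeps marginal zone B cells at the edge of the follicle and opposes the pull of CXCL13.

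The spleens differed in ways that touch the receptors. By Xist and the Y-linked Eif2s3y, the 3 DX2 spleens and control 3 were male, and controls 1 and 2 were female. DX2 1 stood apart in its mixture of cells. Its T cell marker score, the mean log2 value of 13 fixed transcripts, was 6.41, against 7.78 and 7.49 in DX2 2 and DX2 3 and 7.41 to 7.72 in control spleens. Its neutrophil score of 9.11 lay above every other array (7.18 and 7.27 in the other DX2 spleens, 6.69 to 7.83 in control spleens). The score of 14 red pulp macrophage markers, cells that mark the spleen, was 8.65 to 8.77 in DX2 and 8.21 to 8.42 in control spleens, and that of 6 pancreatic markers was 4.29 to 4.52 in DX2 and 4.22 to 4.44 in control spleens. The probe set of Aimp2 is also annotated to Eif2ak1, so the transgene was not checked here. All values are log2 RMA expression, and the number of arrays limits their precision.

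All 10 receptors had a lower mean in DX2 spleens, where 48.4% of all genes did, and 4 of them fell. Gpr183, Ccr6, Cnr2 and Cxcr5 passed limma's test at an adjusted p under 0.05 (Benjamini-Hochberg over 22180 genes), against a background of 0.280% of genes called lower in DX2, 0.0361% called higher and 0.316% called in either direction. The 3 DX2 values lay below the 3 control values for 8 of the 10, against 11.2% of all genes. The same 8 had an unadjusted p under 0.05, against 7.82% of all genes that were lower at that threshold. The 10 were chosen with earlier results of these data known, so these shares describe the list and do not test it. The median difference of the 10 was -0.95 (DX2 minus control), and that of all genes was 0.01. Among DX2 spleens DX2 1 was the lowest for 7 receptors and DX2 2 for the other 3.

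**Figure D1:**
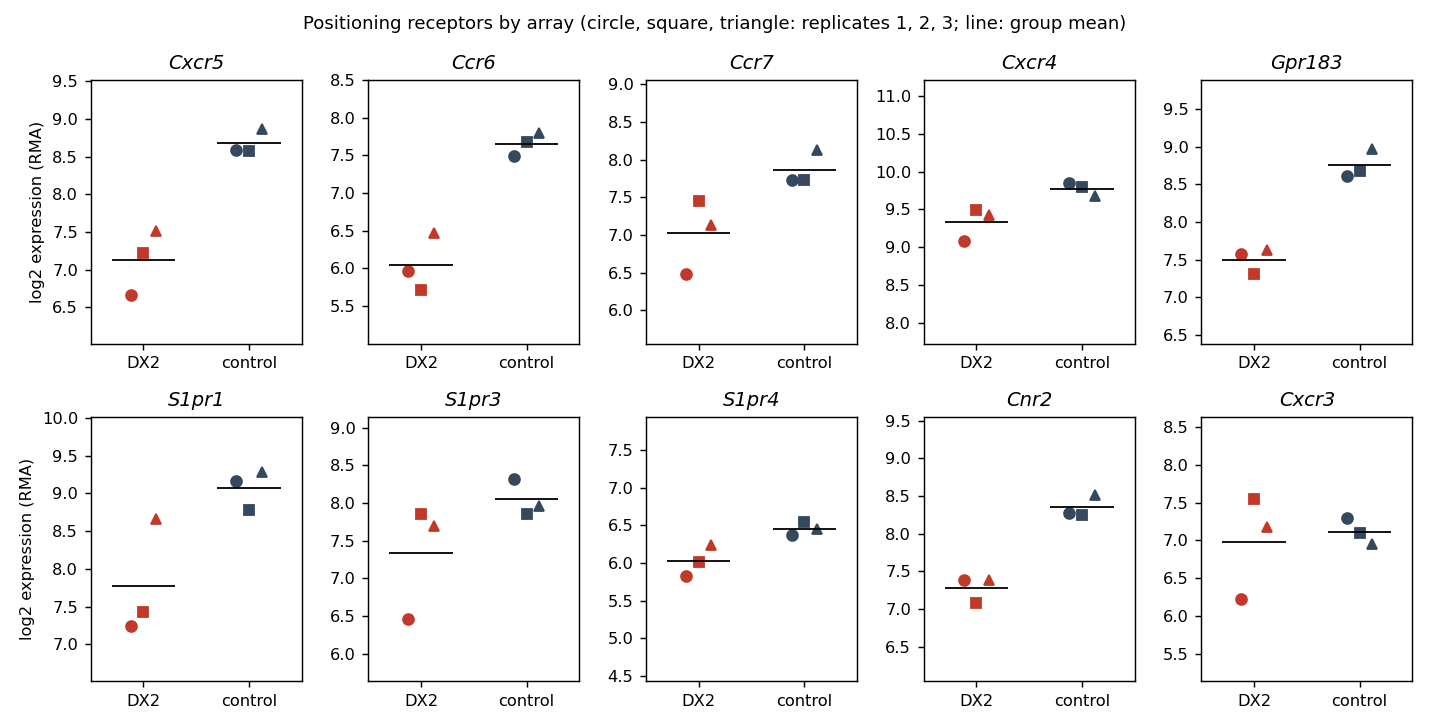
Log2 RMA expression of the 10 receptors on each array, with DX2 spleens at the left and control spleens at the right of each panel, 1 symbol per replicate and a line at the group mean; all panels span the same number of log2 units. The DX2 and control points are separate in 8 panels and overlap for S1pr3 and Cxcr3.

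Cxcr5, the follicle-homing receptor of B cells and follicular helper T cells, read 6.67, 7.22 and 7.51 in DX2 spleens 1, 2 and 3, against 8.58, 8.58 and 8.87 in control spleens. The highest DX2 spleen lay more than 1 log2 unit below the lowest control. DX2 spleens averaged 7.13 ± 0.43, against 8.68 ± 0.17 in control littermates (SD, n = 3 each). Cxcr5 fell by 1.54 (SE 0.22) on the log2 scale, to 34.3% of the control level, with an adjusted p of 0.0456 in limma.

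Ccr6, the receptor for CCL20 on mature B cells and some T cells, had the largest fitted difference of the 10, close to that of Cxcr5. It read 5.96, 5.71 and 6.47 in DX2 spleens, against 7.50, 7.68 and 7.80 in control spleens. The groups lay over 1 log2 unit apart at their nearest points, and DX2 3 was the highest of its group. Ccr6 fell by 1.61 (SE 0.20), which left it 3.05-fold lower in DX2 (adjusted p = 0.0387, limma). The detection floor is unknown for these values.

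Gpr183, the oxysterol receptor that guides B cells between the outer follicle and the T zone border, had tight groups. Its values were 7.57, 7.30 and 7.63 in DX2 spleens and 8.61, 8.68 and 8.97 in control spleens, with no overlap. It fell by 1.25 (SE 0.14), a 2.38-fold lower level in DX2 (adjusted p = 0.0387, limma). Gpr183 also places a subset of splenic dendritic cells, which carries the lectin Clec4a4 (DCIR2). Clec4a4 read 4.56, 4.24 and 4.13 in DX2 against 5.04, 5.31 and 5.43 in control spleens, and its difference of -0.95 (SE 0.16) did not pass (adjusted p = 0.0646).

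Cnr2, the cannabinoid receptor CB2, is carried mainly by B cells and helps retain marginal zone B cells. It read 7.39, 7.08 and 7.39 in DX2 spleens, against 8.28, 8.25 and 8.51 in control spleens. DX2 spleens averaged 7.29 ± 0.18, against 8.35 ± 0.14 in control littermates (SD, n = 3 each), with a gap between the groups that was larger than the spread within either. Cnr2 fell by 1.06 (SE 0.14), to 47.9% of the control level (adjusted p = 0.0387, limma). Across the 6 arrays its profile was the nearest of all member pairs to that of Gpr183, at a root mean square distance of 0.10 log2 units after each gene was centred on its own mean. For both, DX2 2 was the lowest array and control 3 the highest.

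Promoter letters of 3 of the 4 receptors that fell are shown because 2 of these windows hold the same 8 letters. The sequences are the windows from 250 bases before to 50 bases after a RefSeq transcript start (GRCm38.p6), 5′ to 3′ on the gene's strand. They are chr17:8235793-8236092 (+) for Ccr6, chr4:135894939-135895238 (+) for Cnr2 and chr14:121965144-121965443 (-) for Gpr183, and capitals mark the octamer ATGCAAAT, here in its reverse complement ATTTGCAT.
Ccr6: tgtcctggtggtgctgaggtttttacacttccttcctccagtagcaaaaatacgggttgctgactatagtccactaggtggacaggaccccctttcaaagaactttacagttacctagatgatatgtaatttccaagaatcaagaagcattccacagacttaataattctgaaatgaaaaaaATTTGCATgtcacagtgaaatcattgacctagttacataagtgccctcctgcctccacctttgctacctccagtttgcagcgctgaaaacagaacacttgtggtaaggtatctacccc
Cnr2: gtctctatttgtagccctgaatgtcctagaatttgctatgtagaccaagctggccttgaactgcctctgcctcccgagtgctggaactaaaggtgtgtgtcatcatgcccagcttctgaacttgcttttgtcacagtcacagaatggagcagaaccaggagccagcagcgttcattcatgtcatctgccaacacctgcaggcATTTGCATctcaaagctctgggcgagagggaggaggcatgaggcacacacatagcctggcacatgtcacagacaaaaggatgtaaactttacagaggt
Gpr183: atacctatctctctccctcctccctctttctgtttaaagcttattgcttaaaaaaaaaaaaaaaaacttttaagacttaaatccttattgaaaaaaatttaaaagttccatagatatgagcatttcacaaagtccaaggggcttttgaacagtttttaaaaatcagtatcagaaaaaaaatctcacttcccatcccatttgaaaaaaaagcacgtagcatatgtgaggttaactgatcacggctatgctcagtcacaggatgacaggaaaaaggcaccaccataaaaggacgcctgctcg

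The octamer is the letters bound by the OCT transcription factors, among them OCT2 (Pou2f2), which works in B cells with the coactivator OBF1 (Pou2af1). It began 68 bases before the start of the Ccr6 transcript and 48 bases before that of Cnr2. Of 9 promoter windows found for 7 of the 10 members, these 2 held it on either strand, against 1.74% of all 32841 promoter windows of this length. The second window of Ccr6 and of Cnr2, at another transcript start, did not hold it. The E-box CAGGTG was in 3 of the 9 windows (20.2% of all), the PU.1 letters GAGGAAGT in 1 (3.2% of all) and the EBF core CCCNNGGG in 0 (13.7% of all), searched on both strands, with 0 overlaps between different motifs. A match describes letters and is not evidence of binding. Windows for Cxcr5, Ccr7 and S1pr1 were not used here.

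Transcription factors and surface regulators of these receptors were mostly lower too. Of 15 measured genes on this list 13 were lower in DX2, with a median of -0.26, and 1 passed. That gene was Ebf1, a factor that sets B cell identity, at 7.24, 7.01 and 7.87 in DX2 against 9.18, 8.92 and 9.51 in control spleens, and it fell by 1.84 (SE 0.24, adjusted p = 0.0422, limma). Cd69, whose protein pulls S1PR1 off the cell surface, read 6.92, 7.63 and 7.32 in DX2 against 8.20, 8.24 and 8.11 in control spleens (difference -0.89, adjusted p = 0.0919). Pax5, which maintains B cell identity (-1.18, adjusted p = 0.182), and Pou2f2 (-0.38, adjusted p = 0.216) were lower on all 3 DX2 arrays without passing. Pou2af1 and Klf2, and Tbx21 with Cxcr3, are named for their roles after their values were seen. The difference of Pou2af1 was -0.70 with overlapping groups (adjusted p = 0.359), and that of Klf2, an activator of S1pr1, was -0.26 (adjusted p = 0.412).

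S1pr1, the sphingosine 1-phosphate receptor by which lymphocytes leave lymphoid organs and marginal zone B cells hold their place, varied widely among DX2 spleens. It read 7.24 and 7.42 in DX2 1 and DX2 2 but 8.66 in DX2 3, against 9.17, 8.78 and 9.28 in control spleens. DX2 3 thus lay just below the lowest control, and the other two DX2 spleens lay far below it. The difference of -1.30 (SE 0.36) did not pass (adjusted p = 0.15, limma), with a 95% interval from -2.14 to -0.47. Without DX2 3 it was -1.74 (adjusted p = 0.0801).

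S1pr3, which is found on marginal zone B cells and endothelium, was lowest by far in DX2 1, with DX2 3 also below every control. It read 6.46, 7.86 and 7.70 in DX2 spleens, against 8.32, 7.86 and 7.97 in control spleens, and the groups overlapped. Its difference of -0.71 (95% interval -1.54 to 0.11) was -0.27 without DX2 1. Marginal zone B cell markers gave a mixed picture beside it, with 6 of 7 lower and a median of -0.28. The 1 that passed was Cr2, the complement receptor CD21, at 8.19, 6.39 and 7.49 in DX2 against 10.60, 10.10 and 10.86 in control spleens. Cr2 fell by 3.16 on the log2 scale (SE 0.43, adjusted p = 0.0431, limma).

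S1pr4, a receptor of lymphoid and myeloid cells, read 5.83, 6.02 and 6.24 in DX2 spleens, against 6.37, 6.54 and 6.45 in control spleens. Its groups were separate and its difference was small, at -0.43 (SE 0.13, adjusted p = 0.189). Cxcr4, the CXCL12 receptor that is carried by progenitors, lymphocytes and neutrophils, read 9.09, 9.49 and 9.43 in DX2 spleens, against 9.86, 9.80 and 9.68 in control spleens. Its difference was -0.44 (SE 0.14, adjusted p = 0.191), and the profiles of Cxcr4 and S1pr4 were 0.12 log2 units apart, the second nearest member pair.

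Ccr7, the T zone homing receptor of naive T cells, activated B cells and mature dendritic cells, read 6.49, 7.46 and 7.14 in DX2 spleens, against 7.73, 7.73 and 8.14 in control spleens. DX2 1 was the lowest array, as it was for T cell markers, and the groups did not overlap. The difference of -0.84 (95% interval -1.42 to -0.25) did not pass (adjusted p = 0.176, limma), and it was -0.57 without DX2 1.

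Cxcr3, an X-linked receptor of activated T cells and NK cells for CXCL9 and CXCL10, followed no group. It read 6.22, 7.55 and 7.18 in DX2 spleens, against 7.30, 7.09 and 6.95 in control spleens, so DX2 2 was the highest array and DX2 1 the lowest. The difference of -0.13 (95% interval -0.86 to 0.61, adjusted p = 0.885) was 0.26 without DX2 1. Of its 3 ligand transcripts, Cxcl9 and Cxcl10 were also lowest in DX2 1 and highest in DX2 2 among DX2 spleens, with Cxcl9 at 7.57, 11.92 and 10.67 and Cxcl10 at 6.24, 9.21 and 8.15 in DX2 1, 2 and 3, against 8.75 to 10.10 and 6.79 to 8.08 in control spleens. The third ligand, Cxcl11, read 5.33, 9.01 and 5.08 in DX2 against 5.52, 5.06 and 4.78 in control spleens, so DX2 2 alone was high and DX2 3 was the lowest of its group. Tbx21, the T-bet factor that promotes Cxcr3, was also lowest in DX2 1 (5.84) and highest in DX2 2 (7.37).

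**Figure D2:**
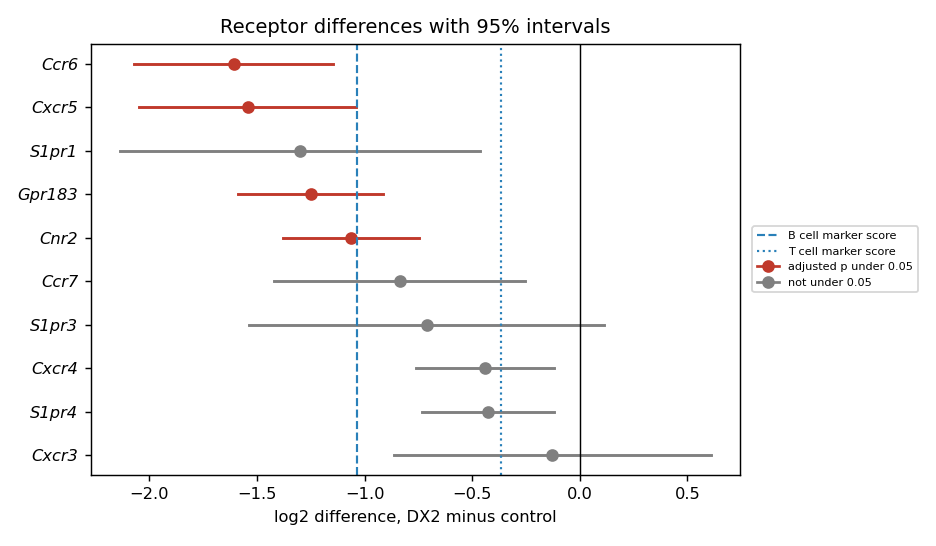
Difference of each receptor in log2 units (DX2 minus control) with its 95% interval from limma, in red for an adjusted p under 0.05 and grey otherwise, with dashed and dotted lines at the differences of the B cell (-1.03) and T cell (-0.37) marker scores. Ccr6, Cxcr5, S1pr1 and Gpr183 lie to the left of the B cell line, and Cnr2 lies almost on it (-1.06). Of these, the intervals of S1pr1, Gpr183 and Cnr2 cross that line. Cxcr3 lies to the right of the T cell line. The T cell score was low in DX2 1 alone.

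B cell transcripts were lower beside the receptors. All 10 measured B cell markers were lower, with a median of -1.12. Of these 1 passed, Cd79b, a signalling subunit of the antigen receptor, which fell by 1.14 (SE 0.16, adjusted p = 0.0456, limma). Ly86 differed by only -0.03, with overlapping groups. The B cell marker score was 8.73, 9.67 and 9.62 in DX2 spleens, against 10.45, 10.20 and 10.47 in control spleens. All 13 T cell markers were lower by a median of -0.39 with overlapping groups and 0 passing (limma, with 1 at an unadjusted p under 0.05). Their score was low in DX2 1 alone (6.41), with 7.78 and 7.49 in DX2 2 and DX2 3 against 7.41 to 7.72 in control spleens. In whole spleen, fewer cells of a type and less RNA per cell cannot be told apart, and the part of cell numbers in the receptor differences was not tested.

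**Figure D3:**
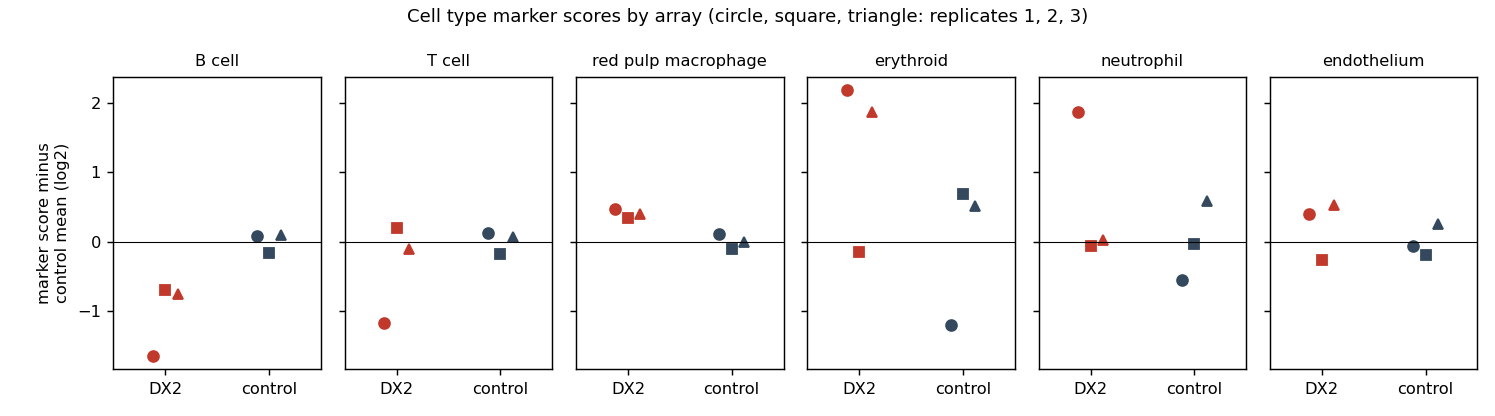
Marker scores (mean log2 expression of a fixed list) on each array minus the control mean, for 6 cell types, DX2 at the left and control at the right. B cell scores are lower on all 3 DX2 arrays, red pulp macrophage scores higher on all 3, and DX2 1 stands apart in T cell and neutrophil scores.

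Set against the B cell markers of the same array, the receptors split. Each receptor was expressed as its log2 value minus the B cell score, centred on the control mean. By this measure Cxcr5 was lower on every DX2 array, at -0.36, -0.76 and -0.41, against -0.17, 0.07 and 0.10 in control spleens, a difference of -0.51. Cxcr3 (difference 0.91), S1pr4 (0.61) and Cxcr4 (0.59) were higher on every DX2 array relative to that score. The B cell score itself differed by -1.03, so a receptor that was lower by less than that reads higher here. Cxcr3 itself differed by only -0.13. The other 6 overlapped, among them Ccr6, whose DX2 values ran from -1.24 in DX2 2 to -0.05 in DX2 1. For Gpr183 and Cnr2, DX2 1 lay above the control spleens (0.47 and 0.69), and DX2 2 (-0.75 and -0.57) and DX2 3 (-0.37 and -0.21) lay below the lowest control.

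The exact two-sided permutation test gave p = 0.1 for Cxcr5, Cxcr3, S1pr4 and Cxcr4, the smallest that 3 against 3 arrays allow, and an adjusted p of 0.217 over the 13 such comparisons made. A ratio within an array shows unequal change and does not say which transcript changed. Relative to the T cell score, S1pr1 was lower on every DX2 array (difference -0.93, p = 0.1, adjusted 0.217, exact permutation), Cxcr3 was higher on every DX2 array (0.24, p = 0.1, adjusted 0.217, exact permutation), and Ccr7 overlapped (-0.47, p = 0.2, exact permutation). The T cell score itself differed by -0.37, so a receptor that was lower by more than that reads lower here. Relative to the B cell score, S1pr1 overlapped between groups (-0.27, p = 0.7, exact permutation). Single arrays moved some of these relative values by over 1.5 times. Without DX2 2, S1pr1 relative to T cell markers was -0.48 and Ccr6 relative to B cell markers was -0.24, against -0.57 on all arrays. Without DX2 1, S1pr4 relative to B cell markers was 0.40, and without control 3, Cxcr3 relative to T cell markers was 0.13.

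**Figure D4:**
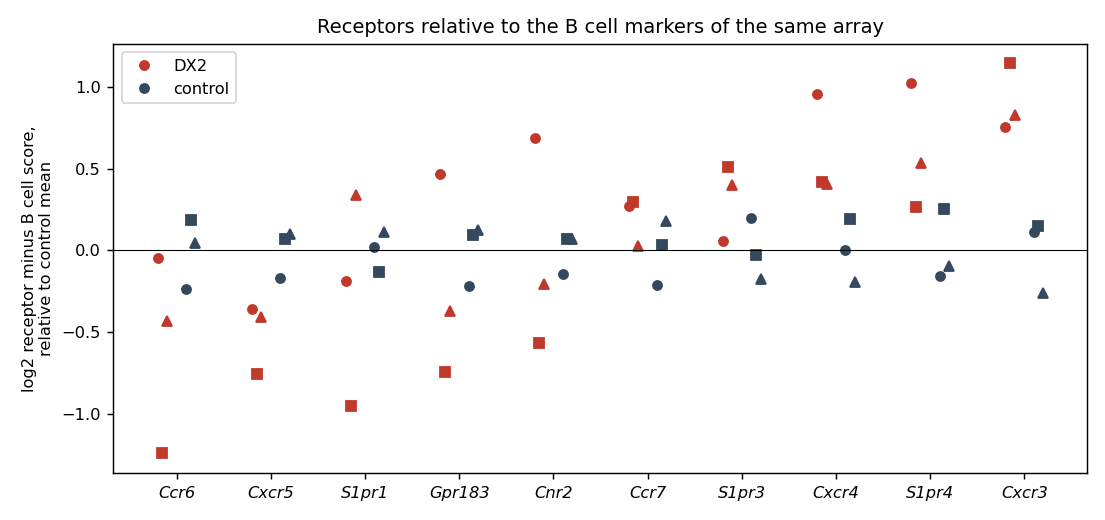
Log2 value of each receptor minus the B cell marker score of the same array, centred on the control mean, with receptors ordered by the difference between groups and 1 symbol per array (circle, square and triangle for replicates 1, 2 and 3). Cxcr5 lies below the control points on all 3 DX2 arrays, and Cxcr4, S1pr4 and Cxcr3 lie above them.

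Ligands of the receptors and the enzymes that make or clear them were split in direction. Of 24 measured genes 8 were lower and 16 higher, with a median of 0.20, and 0 passed in limma (3 at an unadjusted p under 0.05). The median was 0.08 without DX2 2, 0.06 without DX2 3, 0.12 without control 2 and 0.06 with a term for sex. Cxcl13, the ligand of Cxcr5, read 9.31, 11.25 and 10.68 in DX2 spleens, against 11.67, 10.95 and 11.29 in control spleens, a difference of -0.89 (SE 0.46) with overlapping groups. Cxcl12, the ligand of Cxcr4, differed by -0.59 (SE 0.31) and Ccl20, the ligand of Ccr6, by -0.17 (SE 0.24). Probe sets of the Ccr7 ligands are annotated to several near-identical genes and were not used here.

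The oxysterol enzymes gave small values. Ch25h and Cyp7b1, which make the Gpr183 ligand, differed by 0.02 and -0.13. Hsd3b7, which breaks that ligand down, read 6.11, 6.16 and 6.02 in DX2 against 5.52, 5.61 and 5.78 in control spleens (difference 0.46, SE 0.11, adjusted p = 0.122). Cyp27a1, which makes another oxysterol, was lower on all 3 DX2 arrays (-0.38, adjusted p = 0.334). Among genes that make, clear or carry sphingosine 1-phosphate, the kinase Sphk1 (0.47, adjusted p = 0.229), the phosphatase Sgpp1 (0.31, 0.229) and the lyase Sgpl1 (0.23, 0.34) were higher on all 3 DX2 arrays without passing. The groups overlapped for the kinase Sphk2 (0.09), the phosphatases Plpp1 and Plpp3 (0.23 each) and the transporters Spns2 (-0.07) and Mfsd2b (0.80). Mfsd2b read 8.64, 6.33 and 7.90 in DX2 against 6.27, 7.01 and 7.18 in control spleens. Of the enzymes of the Cnr2 ligands, Daglb was higher on all 3 DX2 arrays (0.195, adjusted p = 0.4025, limma). The groups overlapped for Dagla (0.09), Napepld (0.20), Mgll (0.48), Faah (-0.12) and Abhd6 (-0.16).

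Of the related receptors outside the 10, the chemokine receptors were split in direction and the lipid receptors were mostly lower. Of 17 other chemokine receptors 8 were lower and 9 higher (median 0.00), and 0 passed in limma (1 at an unadjusted p under 0.05). That gene was Ccrl2, a chemerin-binding receptor, which was higher in DX2 at 7.41, 6.92 and 7.15, against 6.15, 6.43 and 6.44 in control spleens (difference 0.82, SE 0.16, adjusted p = 0.0834). Among 14 other lipid and related receptors 11 were lower (median -0.17), 0 passed and 6 had an unadjusted p under 0.05. The DX2 values lay below all control values for 6 of the 14 and above them for 1, against 11.2% and 10.7% of all genes.

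Several of those are lymphocyte receptors. Gpr174, a lysophosphatidylserine receptor, read 7.00, 7.88 and 7.43 in DX2 spleens, against 8.52, 8.47 and 8.69 in control spleens, with no overlap (difference -1.12, SE 0.21, adjusted p = 0.0834). Gpr18 (-0.81, adjusted p = 0.191) and Gpr55 (-0.57, 0.174) were also lower on all 3 DX2 arrays. P2ry14, the UDP-glucose receptor, went the other way at 7.77, 8.60 and 7.92 in DX2 against 7.06, 6.84 and 7.31 in control spleens (1.03, SE 0.23, adjusted p = 0.107).

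Genes that act downstream of the receptors went both ways, with more lower than higher. Of 36 measured signalling and desensitisation genes 22 were lower and 14 higher (median -0.10). In limma 0 passed and 13 had an unadjusted p under 0.05. The DX2 values lay below all control values for 11 and above them for 4, against 11.2% and 10.7% of all genes. The receptor kinase Grk6, which damps chemokine receptor signalling, was lower in DX2, at 8.05, 8.29 and 8.47 against 8.92, 8.91 and 8.87 in control spleens (difference -0.63, SE 0.13, adjusted p = 0.0937). The differences of the list ran from -1.15 for Rgs13, a regulator of G protein signalling, to 0.62. Rgs13, named for its place at the end of that range, overlapped between groups, at 4.56, 3.48 and 3.79 in DX2 against 4.24, 5.45 and 5.58 in control spleens (adjusted p = 0.229). Gna12, a G protein alpha subunit, was at 8.19, 8.05 and 8.16 in DX2 against 7.62, 7.50 and 7.69 in control spleens (difference 0.53, adjusted p = 0.093). Stk4 (-0.50, adjusted p = 0.108) and Pik3cg (-0.49, 0.111), kinases of lymphocyte migration, were lower on all 3 DX2 arrays. Of 11 integrin and adhesion genes 5 were lower and 6 higher (median 0.13), with 0 passing and 2 at an unadjusted p under 0.05, Vcam1 (0.49, adjusted p = 0.141) and Itga4 (-0.39, adjusted p = 0.239). That median was -0.18 without DX2 2.

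The genes nearest in profile to the 3 receptors with the largest differences were sought by the root mean square distance over the 6 centred array values. Genes with predicted or accession-like names were left out. Nearest to Ccr6 were Ralgps2 (0.13 log2 units), Ebf1 (0.19) and Icosl (0.24). Nearest to Cxcr5 were Siglecg (0.18), Ralgps2 (0.19) and Tbc1d10c (0.21), and nearest to S1pr1 were Cd79a (0.19), Cobll1 (0.21) and Dtx1 (0.21). Ccr6 and Cxcr5 were 0.24 apart, and the farthest pair of members was Ccr6 and Cxcr3 at 0.90.

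The calls depended on single arrays, and the sizes less so. With each of the 6 arrays left out in turn, the difference ranged from -1.73 to -1.31 for Cxcr5, from -1.82 to -1.44 for Ccr6, from -1.32 to -1.14 for Gpr183 and from -1.12 to -0.96 for Cnr2. All 4 passed without DX2 2 (adjusted p from 0.0341 to 0.0434). None of the 4 passed without DX2 1 (0.054 to 0.0637), DX2 3 (0.0747 to 0.106), control 1 (0.161 to 0.199), control 2 (0.152 to 0.169) or control 3 (0.17 to 0.226), fits with fewer arrays. With a term for sex the 4 differences were -1.74, -1.75, -1.47 and -1.23, each larger in size than without it, and none passed (adjusted p from 0.218 to 0.287). No DX2 spleen was female, so that fit sets the DX2 spleens against control 3 alone and is no independent check of the sizes.

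**Figure D5:**
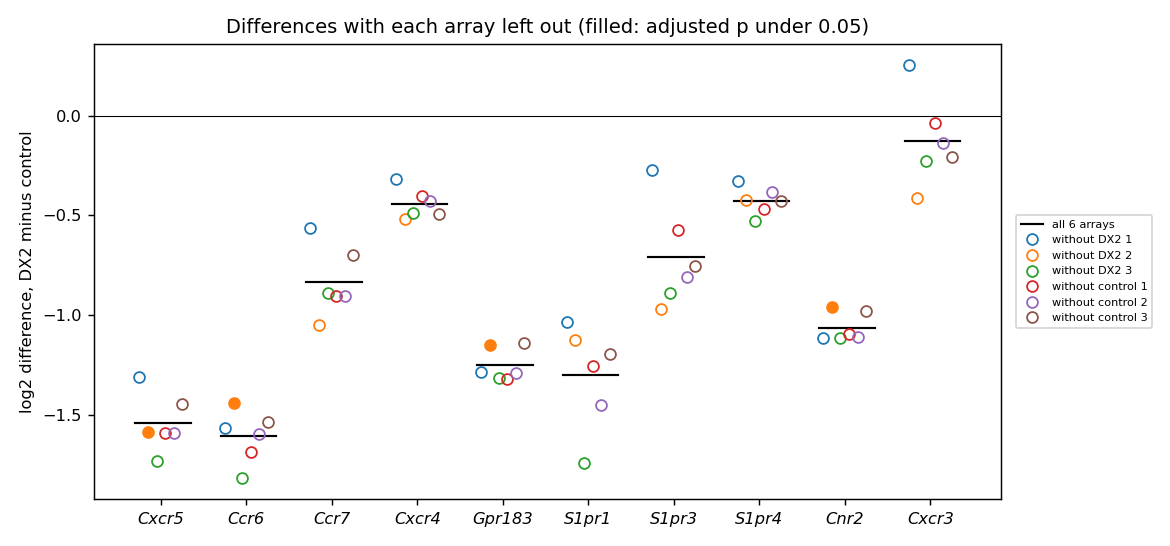
Log2 difference (DX2 minus control) of each receptor with all 6 arrays (line) and with each array left out (circles, filled where the adjusted p in limma was under 0.05). Filled circles appear for Cxcr5, Ccr6, Gpr183 and Cnr2 without DX2 2, and without DX2 1 the Cxcr3 difference lies above 0.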

How the data were processed

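The values are the log2 expression values of the authors' deposited table (41345 probe sets, 6 arrays), made with RMA per the submitters' processing notes. The sources used here give no version, and log2 was inferred from the range (0.77 to 13.3). RMA compresses large differences, and arrays have no read depth. By the platform annotation 23521 probe sets had 1 symbol, 1814 several and 16010 none. Each of 22180 genes took its probe set with the highest mean. DX2 minus control was tested with limma 3.58.1 (R 4.3.3, lmFit and eBayes, no covariate or filter, Benjamini-Hochberg, threshold 0.05), checked on simulated data. Receptor values relative to marker scores were compared with exact permutation tests (SciPy 1.17.1, Python 3.11.15), and the marker scores themselves were not tested. Promoters came from RefSeq (GRCm38.p6).

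The members and gene lists were chosen with earlier results of these data known. The text names the members, their ligands, up to 4 genes per list by smallest unadjusted p, and any list gene that passed, with the 3 nearest genes for the 3 members of largest difference. Other sphingosine 1-phosphate genes, the enzymes of the Cnr2 ligands, Rgs13, Ly86, Timd4, Slc40a1 and Hmox1 were named after their values were seen. Alternatives were a replicate block, each array left out, a filter, other variance priors, array weights, other scalings, other probe set rules, a looser threshold, a sex term, the male spleens alone, and the median marker score. Ly86 was dropped from the B cell list after seeing the data.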

Additional observations from a re-analysis of the deposited data

How the results depend on the processing

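In 17 alternative fits the 10 receptors stayed lower in DX2, except Cxcr3, at 0.037 with the sex term and in the male spleens, and from -0.411 to 0.256 with 1 array left out. The 4 receptor calls held under 9 of 18 alternatives, some of which could not change them. A looser threshold keeps every call. Each receptor had 1 probe set, so the other probe set rules left its values unchanged. No receptor passed with the replicate block (1 gene called, against 70, adjusted p of the 4 receptors 0.174), the sex term (2 genes), the male spleens (0 genes, with 1 control, assumed to vary like the DX2 spleens) or arrays centred on their median (2 genes). In the last, the median of all genes was 0.10 and the 4 adjusted p lay between 0.058 and 0.0623. Genes called were 125 without the 40% dimmest, 547 with array weights and 394 at an adjusted p under 0.1, where the same 4 receptors passed. Second quantile normalization called 20 genes higher and 64 lower, against 8 and 62. With 1 array left out, 1 to 370 genes and 0 to 4 receptors were called. In those fits list calls ranged from 0 to 3 for regulators, 0 to 1 for ligands, 0 to 1 for other chemokine receptors and 0 to 3 for other lipid receptors, and with the sex term regulators had 0. List medians ran, with 1 array left out, from -0.183 to 0.165 for adhesion genes, -0.064 to 0.082 for other chemokine receptors, 0.058 to 0.218 for ligands and -0.482 to -0.171 for regulators. Deviations from the group means correlated at -0.32, -0.14 and 0.07 for same-numbered spleens and at -0.21 to 0.33 for the other pairs. With 3 arrays per group these values cannot tell whether same-numbered spleens share more than a number. Relative to B cell markers, Cnr2 ran from -0.385 (without DX2 1) to 0.24 (without DX2 2) and was above 0 without DX2 3 (0.06) and without control 2 or control 3 (0.008 each), against -0.03 on all arrays. It was 0.039 with the median score and 0.083 without Ly86, an alternative chosen after seeing the data. Gpr183 ran from -0.559 to 0.048 and S1pr1 from -0.567 to 0.077, both highest without DX2 2. The cause of these changes was not tested. Signal over background is unknown in these values, which limits what can be said of dim probe sets.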

Other observations

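Other cell types of the spleen gave these values beside the receptors. Red pulp macrophage markers were higher in DX2 for 11 of 14 (median 0.35). The 1 that passed was Cd5l, a protein secreted by tissue macrophages, which rose by 1.35 (SE 0.18, adjusted p = 0.0422, limma). The 3 that were lower were Timd4 (-0.97, adjusted p = 0.188, limma), on all 3 DX2 arrays, and Slc40a1 (-0.33) and Hmox1 (-0.03), whose groups overlapped. The C1q chain genes C1qa, C1qb and C1qc, which encode the start of the classical complement pathway, were higher on all 3 DX2 arrays without passing, at 10.81, 11.38 and 10.38 in DX2 against 9.73, 9.44 and 9.39 in control spleens for C1qb (difference 1.34, SE 0.25, adjusted p = 0.0817). Erythroid markers were higher for 11 of 11 (median 1.28) with none passing in limma (1 at an unadjusted p under 0.05), and their score was 9.68, 7.34 and 9.36 in DX2 spleens, against 6.29, 8.17 and 8.01 in control spleens. Neutrophil markers (median 0.65, 11 of 11 higher) and megakaryocyte and platelet markers (0.50, 6 of 6 higher) had 0 passing in limma and 0 at an unadjusted p under 0.05. In both scores only DX2 1 lay above the control spleens. The megakaryocyte and platelet score was 9.322, 7.115 and 7.612 in DX2 spleens, against 7.083 to 7.755 in control spleens. The median was -0.17 for 8 NK cell markers, -0.05 for 9 dendritic cell markers, -0.11 for 7 plasma cell markers, 0.18 for 9 endothelial markers and 0.08 for 6 pancreatic markers, with 0 passing. Irf4, a plasma cell and lymphocyte factor, read 7.42, 8.23 and 8.00 in DX2 against 8.57, 8.56 and 8.57 in control spleens (difference -0.68, adjusted p = 0.168). Ncr1, an activating receptor of NK cells, read 6.18, 4.75 and 5.57 in DX2 against 6.50, 6.65 and 6.56 in control spleens (difference -1.07, adjusted p = 0.178). Other NK cell markers went both ways, among them the granzymes Gzma (-0.56, adjusted p = 0.265), which was lower on all 3 DX2 arrays, and Gzmb (1.10, adjusted p = 0.385), whose groups overlapped. Siglech, a receptor of plasmacytoid dendritic cells, read 6.18, 5.47 and 6.37 in DX2 against 7.00, 6.62 and 7.06 in control spleens (difference -0.88, SE 0.24, adjusted p = 0.15).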
